A study of Mus musculus with 16 samples.

Results

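Border-associated macrophages are the resident macrophages of the brain's surfaces. They lie in the meninges, around blood vessels and in the choroid plexus, whereas microglia lie within the tissue itself. Scavenger receptors, clotting factor XIII-A and lectins that bind sugars on the surface of microbes are among the proteins that set them apart from microglia. In the cortex they take up material from the fluid around vessels, and they are one of the first cell types to meet microbial products that leave the blood. The 10 genes described here, Mrc1, Cd163, Lyve1, Pf4, F13a1, Cbr2, Siglec1, Ms4a7, Stab1 and Folr2, were taken as known markers of these cells and were found by gene symbol, with no threshold on their values. All 10 were found among the 24421 genes of the deposited tables, and all 10 had reads in each library.

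RNA was sequenced from the somatosensory cortex of mice labelled male and aged 2 to 3 months. All mice were collected at zeitgeber time (ZT) 4, which is 4 h after lights on. Wild-type mice and AcPb-/- mice, which lack the brain form of the IL1 receptor accessory protein, were either left undisturbed (CTL) or kept awake by gentle handling for 8 h from ZT20 (sleep disruption, SD). The comparison asks how border macrophage genes stand after SD in each genotype, with 3 libraries each of CTL-WT, SD-WT, CTL-AcPbKO and SD-AcPbKO. The knockout removes an isoform rather than the whole gene. The gene count of Il1rap, which sums all isoforms, was 1476 to 1520 normalized reads in CTL-WT and 1515 to 1647 in CTL-AcPbKO, so it could not check the label.

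Depth was 26.5 to 41.6 M reads on genes in the control libraries and 58.8 to 71.9 M in the SD libraries. These ranges did not overlap, so depth and SD are confounded. Libraries labelled male were not uniform: 4 of the 6 control libraries (CTL-WT 02 and 03, CTL-AcPbKO 04 and 05) had 25352 to 39358 reads of Xist, the RNA made from an inactive X chromosome, while the other 8 libraries had at most 13. No SD library was among the 4, so Xist reads and SD are partly confounded. The members that passed after SD and the counts of most other lists over both genotypes are also given with a term for these libraries and without them. Counts of vessel, astrocyte and neuron genes are given with the term only. In wild-type and in AcPb-/- mice alone, leaving out the Xist libraries leaves 1 control library. Over both genotypes the term and the removal give the same log2 fold change by design, so they are not separate checks. Both rest on CTL-WT 01 and CTL-AcPbKO 03 as the controls without Xist reads. Library SD-AcPbKO 04 had a summed choroid plexus level of 18570 normalized reads, against 266 to 598 in the other 11. Haemoglobin genes Hba-a1, Hba-a2, Hbb-bs and Hbb-bt had 0 reads in all libraries, so blood in the tissue could not be followed by them. Levels below are read counts normalized over the 12 libraries together. Fold changes are on the log2(normalized count + 1) scale with their standard error, from limma fits over all genes, and a gene passed at a Benjamini-Hochberg adjusted p under 0.05.

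Per unit of exon length the 10 genes fell over a wide range, and all lay below the microglial genes Tmem119 and P2ry12. Stab1, a scavenger receptor for modified lipoproteins and matrix fragments, had the most reads at 2.67 ± 0.284 per kb of exon per M reads (standard deviation, n = 12 libraries). Mrc1, the mannose receptor CD206, followed at 1.34 ± 0.168. Pf4, a chemokine also stored in platelets, was at 0.919 ± 0.289, and Cbr2, a carbonyl reductase, was at 0.824 ± 0.178. The spreads of Pf4 and Cbr2 overlapped, as did those of Cd163 (0.682 ± 0.179) and F13a1 (0.676 ± 0.158), and those of Folr2 (0.468 ± 0.0853) and Lyve1 (0.460 ± 0.118). Siglec1 at 0.0929 ± 0.0412 and Ms4a7 at 0.0914 ± 0.0268 were the lowest and could not be ordered. On the same per-length scale the microglial genes Tmem119 and P2ry12 had means of 7.96 and 14.1. Stab1, the highest of the 10, was below both. In bulk tissue, fewer border macrophages and less RNA per border macrophage cannot be told apart. Reads of the 10 genes that come from other cells cannot be set apart either.

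**Figure D1:**
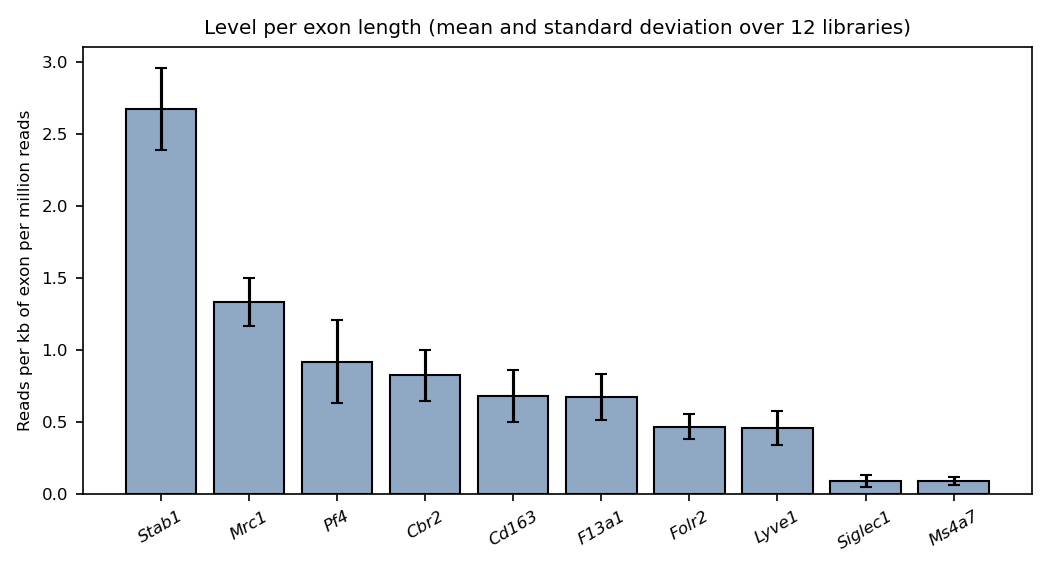
Bars give the level of each border macrophage gene as reads per kb of merged exon per M reads on genes, and error bars give the standard deviation over 12 libraries. Stab1 (2.67) and Mrc1 (1.34) stand highest, and Siglec1 (0.0929) and Ms4a7 (0.0914) stand lowest.

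RefSeq promoters on GRCm38.p6 were matched for 8 of the 10 genes, with 11 start sites in all. Those of Lyve1 and Siglec1 were not matched. The 250 bases before 4 starts are shown, written 5′ to 3′ on the strand of the gene, for F13a1 and Cd163, which changed after SD, and for Mrc1 and Stab1, the most abundant genes, which did not pass the test. Capitals mark GAGGAA or its reverse TTCCTC, the core bound by ETS factors such as the macrophage regulator PU.1, and TGTTCT or its reverse AGAACA, a partial glucocorticoid receptor site.
F13a1 (chr13:37050245-37050494, minus strand): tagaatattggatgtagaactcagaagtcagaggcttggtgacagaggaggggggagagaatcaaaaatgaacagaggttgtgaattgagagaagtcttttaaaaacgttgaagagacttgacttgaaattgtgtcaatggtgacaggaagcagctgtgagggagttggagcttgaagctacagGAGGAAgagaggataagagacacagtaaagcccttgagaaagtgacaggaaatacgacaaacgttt
Cd163 (chr6:124304401-124304650, plus strand): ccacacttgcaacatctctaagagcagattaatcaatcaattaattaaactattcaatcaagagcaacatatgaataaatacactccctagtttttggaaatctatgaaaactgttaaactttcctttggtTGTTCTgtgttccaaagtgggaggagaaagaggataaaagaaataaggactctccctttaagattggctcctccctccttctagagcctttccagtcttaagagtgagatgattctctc
Mrc1 (chr2:14229164-14229413, plus strand): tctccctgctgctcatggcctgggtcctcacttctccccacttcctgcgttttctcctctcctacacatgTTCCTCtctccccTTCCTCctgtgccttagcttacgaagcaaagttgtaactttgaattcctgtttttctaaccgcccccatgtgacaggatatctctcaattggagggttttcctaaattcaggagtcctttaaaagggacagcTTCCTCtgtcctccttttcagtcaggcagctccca
Stab1 (chr14:31168642-31168891, minus strand): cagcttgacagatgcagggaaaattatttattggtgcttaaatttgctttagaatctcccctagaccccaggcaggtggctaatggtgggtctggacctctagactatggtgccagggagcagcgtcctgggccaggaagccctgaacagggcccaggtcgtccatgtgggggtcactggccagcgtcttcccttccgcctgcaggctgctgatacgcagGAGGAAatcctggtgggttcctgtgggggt
The GAGGAA core lay in these windows for F13a1, Mrc1 (at 3 places), Stab1, Pf4 and Cbr2, which is 5 of the 11 member promoters (45.5%) against 23.3% of 32851 RefSeq promoters. In F13a1 it lay at -66 to -61 from the start, and in Stab1 at -30 to -25. TGTTCT lay in the Cd163 window at -119 to -114 and in 1 window each of Ms4a7 and Folr2, which is 27.3% against 16.1% of all promoters. The partial MAF site TGCTGAC (3.8% of all promoters) and the E-box CACGTG (6.0% of all promoters), searched on both strands, were in 0 of the 11 windows. These are matches of letters, and binding was not measured.

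After SD, F13a1 and Cd163 rose in wild-type mice and Siglec1 fell, which is 3 of the 10 genes past the threshold. Of all 20417 genes tested 25.4% passed, 13.2% higher and 12.2% lower, so 2 higher and 1 lower of 10 is near the share of the whole table. In AcPb-/- mice only F13a1 passed, 1 of 10 against 27.4% of 20574 genes (14.1% higher). Over both genotypes F13a1 and Lyve1 rose and Siglec1 fell, 3 of 10 against 41.5% of 20978 genes (21.2% higher and 20.3% lower). These shares also stand beside the counts of other lists over both genotypes given below. With the Xist term 6451 of 20978 genes passed. Without the Xist libraries, which leaves 1 control library in each genotype, fewer of all genes passed than with the term. The median log2 fold change of the 10 genes was 0.18 in wild-type mice, 0.05 in AcPb-/- mice and -0.02 over both, beside medians of -0.0039, 0.014 and 0.0029 over all genes tested.

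**Figure D2:**
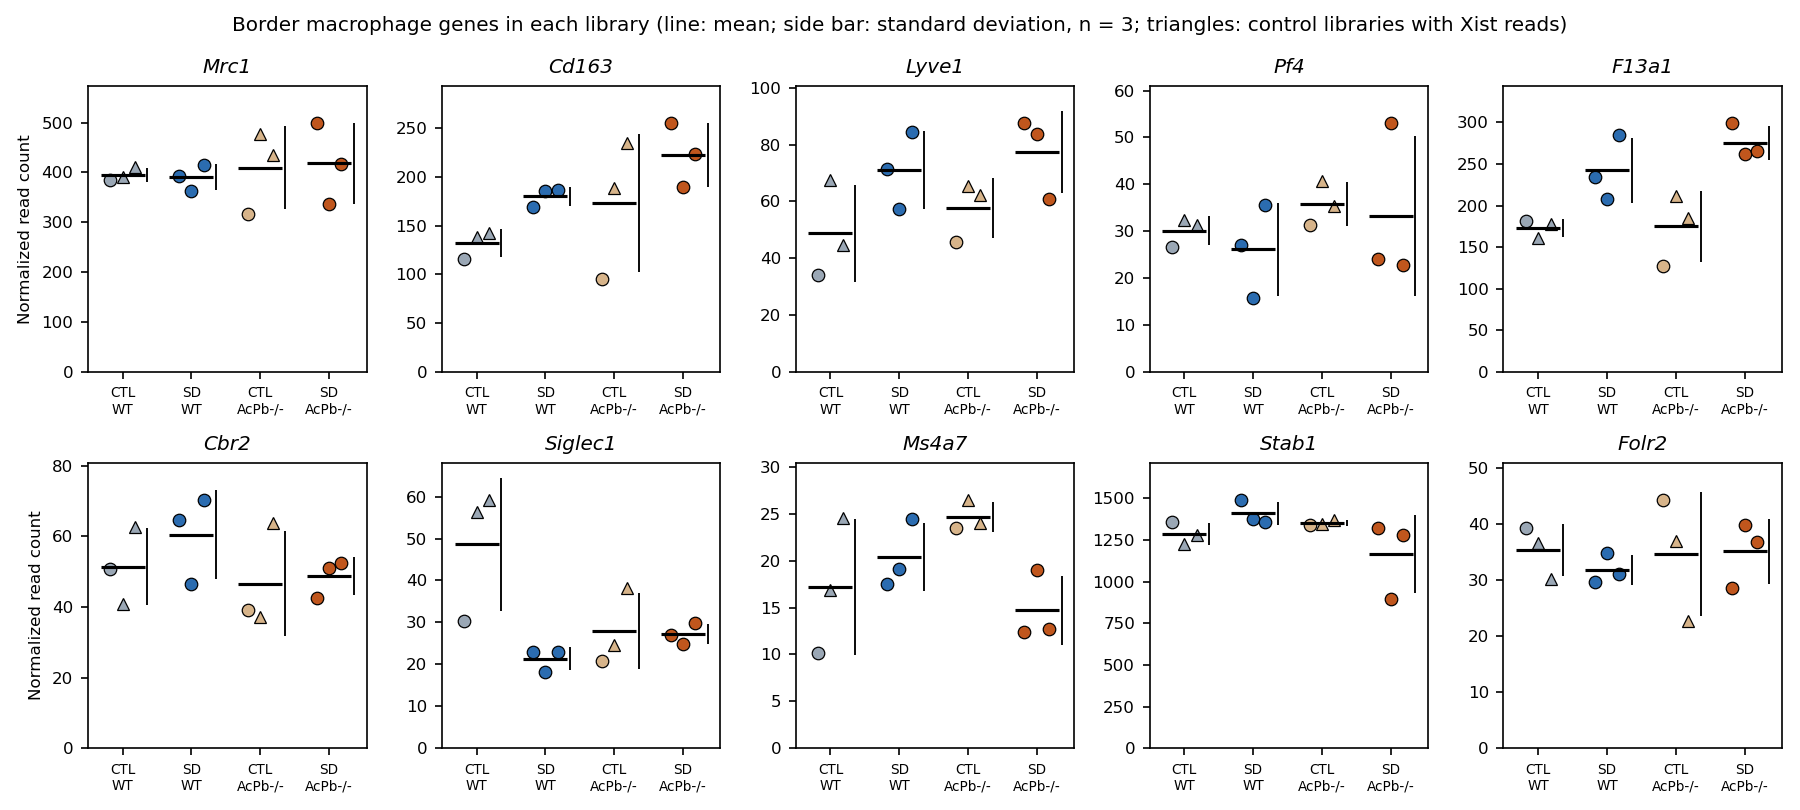
Each panel plots 1 gene, with the normalized read count on the y axis from 0 and the 4 groups on the x axis; points are libraries, lines are group means, side bars are the standard deviation (n = 3) and triangles are the 4 control libraries with Xist reads. F13a1 lies above its own controls in each SD group (lowest 207.5 against a highest control of 181.0 in wild-type mice, and 261.8 against 211.9 in AcPb-/- mice), and Siglec1 is highest in the CTL-WT triangles (56.34 and 59.23).

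F13a1 encodes the A subunit of clotting factor XIII, an enzyme that cross-links fibrin and matrix proteins, and it lies at chr13:36867178-37050244 on the minus strand (GRCm38). Its normalized counts were 181.0, 160.6 and 177.7 in CTL-WT 01, 02 and 03. In SD-WT 01, 02 and 04 they were 234.5, 207.5 and 284.4. All SD-WT libraries were above all CTL-WT libraries. The log2 fold change was 0.47 ± 0.14 (limma, adjusted p = 0.0317), a rise of 1.39-fold. In CTL-AcPbKO 03, 04 and 05 the counts were 127.8, 211.9 and 185.4, and in SD-AcPbKO 02, 03 and 04 they were 298.9, 261.8 and 265.3. These groups did not overlap either, and the log2 fold change was 0.68 ± 0.19 (limma, adjusted p = 0.0266). Over both genotypes it was 0.58 ± 0.12 (limma, adjusted p = 0.00201), or 1.49-fold.

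The rise of F13a1 over both genotypes stayed past the threshold with each of the 12 libraries left out in turn (log2 fold change 0.47 to 0.65, adjusted p 0.00105 to 0.00693). With the Xist term it was 0.75 (adjusted p = 0.00406), and over the 8 libraries without Xist reads it was 0.75 (adjusted p = 0.0163). In wild-type mice it was 0.65 with the term (adjusted p = 0.0382) and 0.41 without those libraries (adjusted p = 0.247), and in AcPb-/- mice 0.86 (adjusted p = 0.00807) and 1.10 (adjusted p = 0.0288). Within 1 genotype the call depended on single libraries, and in wild-type mice it was also lost with all 4 groups in 1 fit. In wild-type mice the limma adjusted p rose above 0.05 without CTL-WT 02 (0.115), CTL-WT 03 (0.0562), SD-WT 01 (0.0856) or SD-WT 04 (0.0713), and in AcPb-/- mice without SD-AcPbKO 02 (0.110), 03 (0.0506) or 04 (0.0673). Monocytes and platelets also make F13a1. None of the 8 monocyte and dendritic cell genes passed in any of these 3 comparisons, but their summed level, 509 to 732 normalized reads in controls and 583 to 799 after SD, was mostly Flt3 (568 ± 89.3 in CTL-WT), and the monocyte genes Ly6c2 and Ccr2 were at only 3.89 ± 2.93 and 15.5 ± 4.95 in CTL-WT. Of 6 platelet genes 0 rose and 4 fell over both genotypes, among them Itga2b (log2 fold change -0.66 ± 0.12, adjusted p = 0.000633) and Gp9 (-0.87 ± 0.23, adjusted p = 0.00754), and their summed level went from 219 to 311 in controls to 148 to 204 after SD. The count that fell was 1 with the Xist term and 1 without the Xist libraries. What part monocytes or platelets had in the level of F13a1 was not tested.

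Cd163 is the scavenger receptor that clears haemoglobin bound to haptoglobin, and glucocorticoids are known to induce it in macrophages. The gene lies at chr6:124304656-124330527 on the plus strand. Its counts were 115.2, 138.0 and 141.9 in CTL-WT and 168.5, 185.1 and 185.9 in SD-WT, so each SD-WT library was above each control. The log2 fold change was 0.45 ± 0.14 (limma, adjusted p = 0.0352). In AcPb-/- mice the size was alike at 0.45 ± 0.30, but the controls spread widely (95.23, 188.9 and 234.9, against 254.8, 189.8 and 222.8 after SD), the groups overlapped and the test was not passed (limma, adjusted p = 0.312). Leaving out CTL-AcPbKO 03, the lowest library, brought that log2 fold change to 0.07, and leaving out CTL-AcPbKO 05, the highest control, brought it to 0.72. Over both genotypes Cd163 was at 0.45 ± 0.18 (limma, adjusted p = 0.0622). With all 4 groups in 1 fit Cd163 did not pass in wild-type mice either. Cd163 is among the genes that the study plotted from these libraries, so its direction in wild-type mice is not independent evidence.

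The control libraries with Xist reads had more Cd163 than the others. The counts were 138.0 to 234.9 in the 4 Xist libraries and 95.23 and 115.2 in the other 2 controls. With the Xist term the SD effect over both genotypes was 0.92 (limma, adjusted p = 0.00206), and without the 4 libraries it was 0.92 (limma, adjusted p = 0.00981), so it was larger than over all 12 libraries. In wild-type mice it was 0.92 with the term (limma, adjusted p = 0.012) and 0.64 without those libraries (limma, adjusted p = 0.102), and in AcPb-/- mice 0.92 (limma, adjusted p = 0.00895) and 1.20 (limma, adjusted p = 0.0268). In wild-type mice alone, only leaving out CTL-WT 03 kept the call (limma, adjusted p = 0.0426), and without any other single library the adjusted p was 0.0619 (SD-WT 04), 0.0725 (SD-WT 01), 0.0757 (CTL-WT 02), 0.0887 (CTL-WT 01) or 0.116 (SD-WT 02). Beside Cd163, 7 of 12 glucocorticoid-induced genes rose over both genotypes and 1 fell, and with the Xist term or without the Xist libraries 8 rose and 1 fell. Plin4, a lipid droplet protein, rose by a log2 fold change of 2.84 ± 0.24 (limma, adjusted p = 3.01e-06), and Fkbp5, a co-chaperone of the glucocorticoid receptor, by 1.21 ± 0.11 (limma, adjusted p = 4.13e-06). Whether this bears on Cd163 was not tested. Of 13 heme and iron genes 2 rose, among them the heme oxygenase Hmox1 (0.48 ± 0.11, limma, adjusted p = 0.00347), and 4 fell, among them the transferrin receptor Tfrc (-0.82 ± 0.06, limma, adjusted p = 1.47e-06). These counts were 1 and 4 with the Xist term, and 1 and 3 without the Xist libraries.

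Lyve1 encodes a hyaluronan receptor of perivascular macrophages that lymphatic endothelium also carries, and lies at chr7:110850607-110863239 on the minus strand. Its counts were 34.18, 67.61 and 44.7 in CTL-WT and 71.44, 57.26 and 84.42 in SD-WT. In CTL-AcPbKO they were 45.66, 65.33 and 62.26, and in SD-AcPbKO 87.5, 83.76 and 61.01. The SD libraries overlapped the controls in both genotypes. Lyve1 did not pass within a genotype (0.57 ± 0.26, adjusted p = 0.144 in wild-type mice, and 0.42 ± 0.23, adjusted p = 0.214 in AcPb-/- mice, limma). Over both genotypes it passed narrowly at 0.49 ± 0.19 (limma, adjusted p = 0.0484). That call held only without CTL-WT 02 (0.0133), SD-WT 02 (0.040) or SD-AcPbKO 04 (0.0332), and without each of the other 9 libraries the limma adjusted p was 0.0508 to 0.113. With the Xist term the log2 fold change was 0.87 (limma, adjusted p = 0.00979), and over the 8 libraries without Xist reads 0.87 (limma, adjusted p = 0.0338). In wild-type mice the term gave 0.95 (limma, adjusted p = 0.0279) and leaving those libraries out 1.02 (limma, adjusted p = 0.108), and in AcPb-/- mice 0.80 (limma, adjusted p = 0.0479) and 0.73 (limma, adjusted p = 0.170). Of the 6 lymphatic endothelial genes Ccl21a had 0 reads and none of the other 5 passed over these libraries, while with the Xist term 1 rose and 1 fell, and without the Xist libraries 1 rose.

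Siglec1, sialoadhesin or CD169, binds sialic acid on cells and microbes and is induced by interferons. The gene lies at chr2:131069220-131086765 on the minus strand. It had few reads, from 14 to 53 per library. Its normalized counts were 30.38, 56.34 and 59.23 in CTL-WT and 22.91, 18.26 and 22.96 in SD-WT, so all SD-WT libraries were below all controls. The log2 fold change was -1.10 ± 0.29 (limma, adjusted p = 0.0185). In AcPb-/- mice the counts were 20.87, 24.72 and 38.2 undisturbed and 27.1, 24.87 and 29.8 after SD, with a log2 fold change of 0.01 ± 0.28 (limma, adjusted p = 0.983). Over both genotypes it was -0.55 ± 0.21 (limma, adjusted p = 0.0486). The study also plotted Siglec1 from these libraries, so its fall in wild-type mice is not independent evidence.

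The Siglec1 call changed with the treatment of the Xist libraries. CTL-WT 02 and 03, the highest of the 12 libraries, both had Xist reads. CTL-WT 01, without them, had 30.38 against 18.26 to 22.96 in SD-WT. The 4 Xist controls ranged from 24.72 to 59.23 and the other 2 were at 20.87 and 30.38, so these overlapped. With the Xist term the log2 fold change in wild-type mice was -0.62 (limma, adjusted p = 0.141), without the Xist libraries it was -0.50 (limma, adjusted p = 0.247), and with the term over both genotypes -0.06 (limma, adjusted p = 0.857). Over the 8 libraries without Xist reads the log2 fold change was the same by design, at -0.06, so it adds no separate check. In wild-type mice the call held without CTL-WT 01 (0.00496) or SD-WT 04 (0.0264), and was lost without CTL-WT 02 (0.0798), CTL-WT 03 (0.0607), SD-WT 01 (0.0516) or SD-WT 02 (0.0739). Over both genotypes it held only without CTL-WT 01 (0.00958) or CTL-AcPbKO 03 (0.0279), and the limma adjusted p was 0.0609 to 0.115 without each of the other 10. Of 11 interferon-stimulated genes 0 rose and 1 fell in wild-type mice. Over both genotypes 1 rose and 2 fell, and with the Xist term or without the Xist libraries 3 rose and 0 fell.

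**Figure D3:**
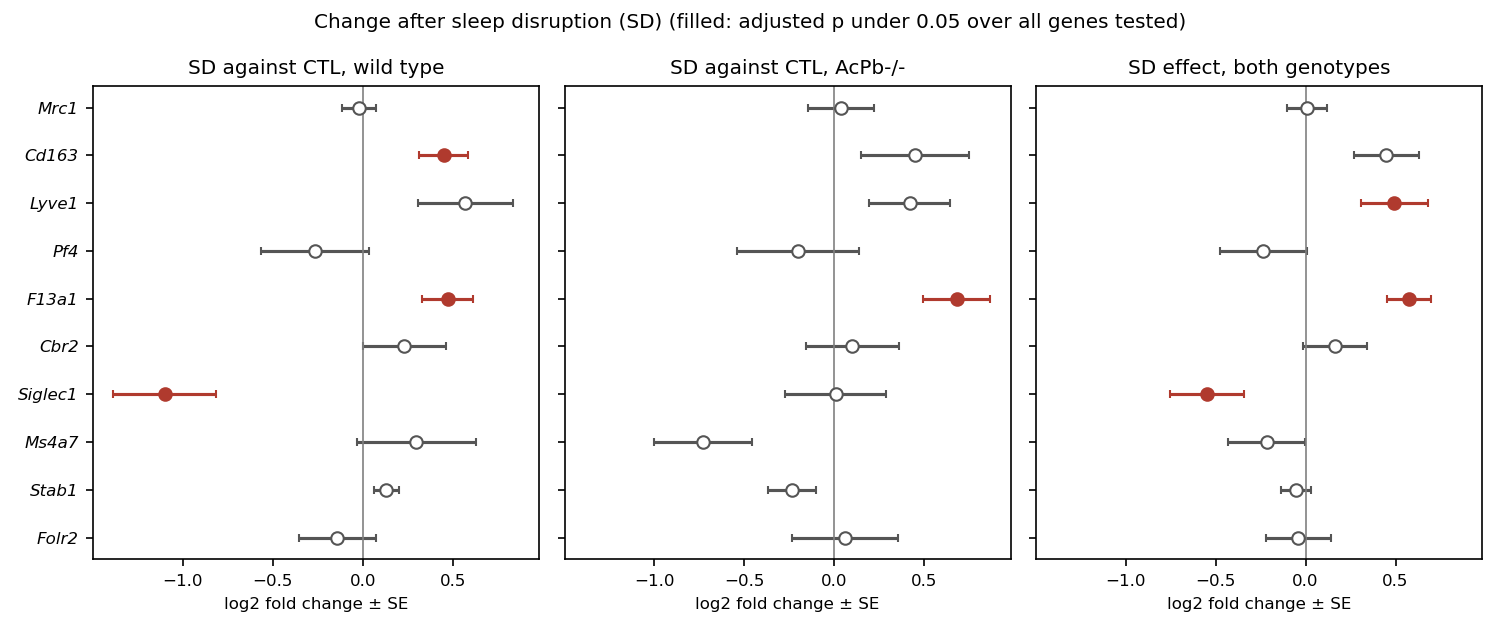
Points give the log2 fold change of SD against control for each gene in wild-type mice, in AcPb-/- mice and over both genotypes, with the SE as bars and filled points past the threshold. F13a1 is filled in all 3 panels (0.47, 0.68 and 0.58), while Siglec1 lies at -1.10 in wild-type and 0.01 in AcPb-/- mice.

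**Figure D4:**
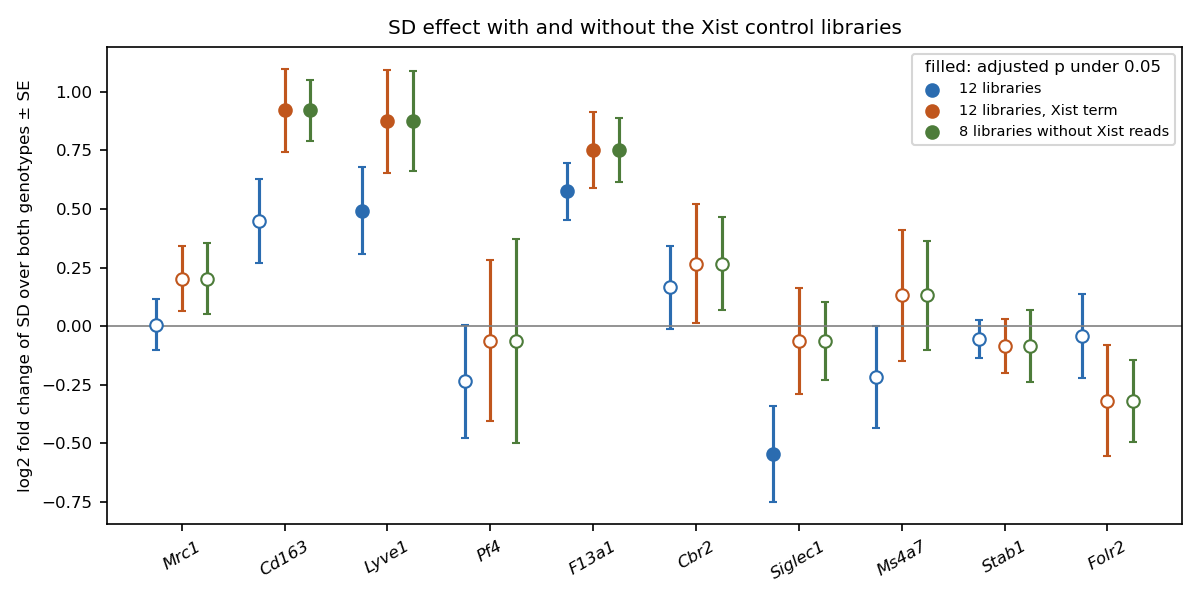
The log2 fold change of SD over both genotypes (y axis, with SE) is plotted for each gene over 12 libraries, with a term for the Xist libraries, and over the 8 libraries without Xist reads. F13a1 stays near 0.58 to 0.75, Cd163 goes from 0.45 to 0.92 and Lyve1 from 0.49 to 0.87, and Siglec1 goes from -0.55 to -0.06.

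The other scavenging and uptake receptors did not pass in any comparison. Stab1 had 1356, 1225 and 1280 normalized reads in CTL-WT and 1491, 1377 and 1360 in SD-WT, so the SD-WT libraries were all higher, by a log2 fold change of 0.13 ± 0.07 (limma, adjusted p = 0.202). In CTL-AcPbKO it had 1341, 1345 and 1371, and in SD-AcPbKO 1319, 896.5 and 1278, so these were all lower, by -0.23 ± 0.13 (limma, adjusted p = 0.239). Without SD-AcPbKO 03 the latter was -0.06. Mrc1, which takes up sugars with terminal mannose, was at 384.8 to 411.3 in CTL-WT, 362.7 to 415.4 in SD-WT, 315.7 to 476.7 in CTL-AcPbKO and 337.7 to 498.7 in SD-AcPbKO. Its log2 fold change over both genotypes was 0.01 ± 0.11. Folr2, the folate receptor beta, lay between 22.64 and 44.36 in every library with a log2 fold change of -0.04 ± 0.18, and 63.1% of its exon length overlaps Gm10602 on the other strand, so its reads are uncertain if strand was not used in counting.

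Pf4, Cbr2 and Ms4a7 had few reads and did not pass. Pf4 ranged from 15.77 in SD-WT 02 to 53.01 in SD-AcPbKO 03, and its log2 fold change over both genotypes was -0.23 ± 0.24. Cbr2 lay between 37.08 and 70.35 with 0.17 ± 0.18, and 5.4% of its stretches of 100 exon bases are shared with Gm11771. Ms4a7, a membrane protein of macrophages related to CD20, had 8 to 33 reads per library. Its normalized counts in AcPb-/- mice were 23.48, 26.49 and 24.05 undisturbed and 12.39, 18.98 and 12.77 after SD. These groups did not overlap, but the log2 fold change of -0.73 ± 0.27 was not past the threshold (limma, adjusted p = 0.0786). In wild-type mice it was 0.30 ± 0.33, with 10.13, 16.9 and 24.59 undisturbed and 17.52, 19.09 and 24.44 after SD.

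Groups did not overlap for 4 of the 10 genes in wild-type mice (Cd163, F13a1 and Stab1 higher, Siglec1 lower) and for 3 in AcPb-/- mice (F13a1 higher, Ms4a7 and Stab1 lower). Among all genes tested 40.2% and 42.3% did not overlap, so these counts are near the background.

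No border macrophage gene passed for genotype. Between undisturbed groups 0 of 10 passed, against 0.0197% of 20273 genes, and edgeR and DESeq2 also called 0. Unadjusted, 1 gene had p under 0.05 in limma, Siglec1, which was lower in CTL-AcPbKO by -0.76 ± 0.33 (adjusted p = 0.574). After SD 0 of 10 passed, against 0.0145% of 20621 genes, none had an unadjusted limma p under 0.05, and edgeR and DESeq2 called 0. After SD, the AcPb-/- and wild-type libraries did not overlap for 3 of the 10, against 11.4% of all genes tested: Cd163 (0.30 ± 0.13, adjusted p = 0.825) and Siglec1 (0.34 ± 0.22, adjusted p = 0.888) lay higher in AcPb-/- mice and Stab1 (-0.30 ± 0.13, adjusted p = 0.824) lower, and none of them passed in limma.

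Whether SD acted differently in AcPb-/- and wild-type mice was tested as an interaction over the 12 libraries. In limma 0 of 10 border macrophage genes passed, as did 0% of 20978 genes, and edgeR and DESeq2 called 0 of the 10. Unadjusted, 3 had p under 0.05: Siglec1 (1.11 ± 0.41), Ms4a7 (-1.03 ± 0.43) and Stab1 (-0.37 ± 0.16), each with an adjusted p of 0.986. Siglec1 passing in wild-type and not in AcPb-/- mice was thus not shown to be a difference between the genotypes. The interaction of F13a1 was 0.21 ± 0.24 and that of Cd163 -0.0037 ± 0.36.

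Other genes enriched in border macrophages moved in both directions. Of 26, 2 rose, 4 fell and 20 did not pass over both genotypes, with a median log2 fold change of 0.06. Of all 20978 genes tested 41.5% passed, 21.2% higher and 20.3% lower. The counts were 3 and 4 with the Xist term, and 2 and 4 without the Xist libraries. Dab2, an endocytic adaptor, rose by 0.32 ± 0.06 (limma, adjusted p = 0.000488), and Cd36, a scavenger receptor for lipids, fell by 0.87 ± 0.25 on the log2 scale (limma, adjusted p = 0.0131). Slc40a1, the iron exporter ferroportin, fell by 0.54 ± 0.06 on that scale (limma, adjusted p = 1.71e-05), and Ms4a6c rose by 0.55 ± 0.14 (limma, adjusted p = 0.00684), though with the Xist term it was at 0.40 (limma, adjusted p = 0.149). The 2 others that fell were Gas6 and Ednrb, and Ednrb is also abundant in astrocytes. Of this list, Cd209d, Ccl8, Vsig4 and Timd4 had under 10 reads in every library.

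MHC class II genes present antigen, and a part of the border macrophages carries them at high levels. Of 7, 4 fell and 1 rose over both genotypes, as many as with the Xist term, and without the Xist libraries 1 fell and 1 rose. H2-Aa was at 96.8 ± 4.48 in CTL-WT and 46.5 ± 11.7 in SD-WT, and at 110 ± 20.3 and 68.4 ± 19.9 in the AcPb-/- groups (standard deviation, n = 3 each), and its log2 fold change was -0.89 ± 0.17 (limma, adjusted p = 0.000909). H2-Eb1 was at -0.69 ± 0.18 (limma, adjusted p = 0.00683) and Cd74, the invariant chain, at -0.50 ± 0.14 (limma, adjusted p = 0.0115), while the transactivator Ciita rose by 0.60 ± 0.09 (limma, adjusted p = 0.000179). The study listed MHC components both among the genes higher and among the genes lower after SD, and its text names no class II gene. Whether class II genes were among those lower is not stated there, so this direction is not taken as independent evidence.

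Genes of the surroundings are set beside the 41.5% of 20978 genes that passed over both genotypes (21.2% higher and 20.3% lower). With the Xist term 6451 of these 20978 genes passed, against 8707 in the fit with no such term. Without the Xist libraries fewer still of all genes passed, with 1 control library left in each genotype. Lower counts of a list in these 2 fits are therefore not read as a result about its genes. Of 15 meningeal fibroblast genes 1 rose and 7 fell over both genotypes, among them the collagens Col1a1 (-0.65 ± 0.13, limma, adjusted p = 0.00158), Col1a2 (-0.64 ± 0.12, limma, adjusted p = 0.00108) and Col3a1 (-0.70 ± 0.16, limma, adjusted p = 0.00329). Only Col1a1 fell with the Xist term and 0 fell without the Xist libraries, while 1 rose in each. Their summed level was 13380 to 13870 in CTL-WT and 11360 to 13050 in SD-WT, and 13550 to 17170 and 13860 to 15060 in the AcPb-/- groups. Of 12 microglial genes 5 fell and 1 rose, against 3 and 1 with the Xist term and 2 and 0 without the Xist libraries. Of 16 genes of all tissue macrophages 5 fell, among them Adgre1, the antigen F4/80 (-0.59 ± 0.12, limma, adjusted p = 0.00149), and Spi1, which encodes PU.1 (-0.48 ± 0.11, limma, adjusted p = 0.00322), and 3 rose, among them the Fc receptor Fcgr3 (0.42 ± 0.08, limma, adjusted p = 0.000687). These were 5 and 1 with the Xist term, and without the Xist libraries 2 fell and 0 rose. Of 6 ligands and growth factors of macrophages 1 rose, Cx3cl1 (0.16 ± 0.05, limma, adjusted p = 0.0242), and 1 fell, Tgfb1 (-0.22 ± 0.07, limma, adjusted p = 0.0211), and neither passed with the Xist term or without the Xist libraries. What part the amount of meninges in the tissue had in the levels of the 10 genes was not tested.

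Likeness between the 10 genes was weak. Over the 45 pairs Pearson's r had a median of 0.00 over 12 libraries, from -0.61 to 0.79, and 0.18 with each group's mean removed, from -0.81 to 0.83. All genes of a library share its depth and dissection, depth differed between control and SD libraries, and these values are a description. The mean standardized profile of the 9 members with a mean of at least 20 (all but Ms4a7), with group means removed, was most like those of Mybpc3 (r = 0.988), Tsc22d1, Calb1, Pvrl3 and Fam43b among 15263 genes over 12 libraries. By the same measure the 15 meningeal fibroblast genes had a median r of 0.568 and 16 other border macrophage genes 0.386, beside 0.034 over all genes and 0.00 over 12 microglial genes. Interferon-stimulated genes were at 0.361, ligands and growth factors of macrophages at 0.286 and glucocorticoid-induced genes at 0.267, so the likeness was not particular to border cells. Without removal of group means the most alike were Sirt1 and Efnb1 (r = 0.865 each), 1110037F02Rik, Crabp2 and Erlin1. The medians were then 0.188 for meningeal fibroblasts and 0.083 for other border macrophage genes. They were higher for glucocorticoid-induced genes (0.391), interferon-stimulated genes (0.273) and ligands and growth factors of macrophages (0.266).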

How the data were processed

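RNA was from 12 libraries of mouse somatosensory cortex, 3 in each of 4 groups. A further 4 labelled samples were not analysed here. Per the labels and the paper, the authors aligned paired-end reads of 100 bases from a stranded kit to mm10 with HISAT2 2.2.1, counted reads per gene (the labels name featureCounts and the paper HTSeq, and the strand setting and annotation are not given in the sources used here) and normalized them in DESeq2. The 5 tables deposited by the authors hold, per library, a normalized signal, the read count divided by a size factor. The authors' columns of fold changes and p-values for their own comparisons were not used. Size factors were undone, and the reads so recovered were whole to 0.01 for 100.0% of 732630 values.

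The members and gene lists were chosen with earlier results of these data known. The planned unit was counts, and since the tables hold normalized values, limma 3.58.1 (R 4.3.3) was run with a variance trend, after adding 1 to each normalized count and taking log2, over genes with at least 1 read, per deposited table for 2 groups and over 12 jointly normalized libraries for the mean SD effect and the interaction. P-values were two-sided and adjusted by Benjamini-Hochberg over all genes tested. They measure the spread between 3 samples a group, which may be in part technical. Alternatives were pseudocounts of 0.1 and 10, a mean of at least 10, an adjusted p under 0.01, no variance trend, median centring, edgeR 4.0.16 and DESeq2 1.42.0 on recovered reads, thinning to 26504840 reads, a term for Xist libraries or their removal, 1 fit of all groups, the replicate block and each library left out. For the lists, the Xist term and removal were added after seeing the data. All 10 members are named; of each other list at most 4 genes past the threshold with the largest change are given in detail, and Gas6, Dab2, Flt3, Ly6c2 and Ccr2 were named after their values were seen. Of the 21 lists, neutrophil, lymphocyte, astrocyte, neuron and vessel genes served as markers of other cells. One listed gene is counted in its list and is not reported by itself here. Per-length levels used GENCODE M21 exons on GRCm38, matched by symbol for 95.7% of genes. The fit was also run on simulated wild-type counts of even spread, with changes placed only in genes with more reads. The outcome is not given here, and it does not cover genes with few reads.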

Additional observations from a re-analysis of the deposited data

Results flagged for a closer look

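Stab1 differed in sign between the 2 genotypes after SD: each SD-WT library was above each CTL-WT library, with a log2 fold change of 0.13, and each SD-AcPbKO library was below each CTL-AcPbKO library, with -0.23. Neither passed, and the interaction of -0.37 ± 0.16 had a limma adjusted p of 0.986 (unadjusted 0.0411). Without SD-AcPbKO 03 the interaction was -0.19.

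Outside the compared genes, the 8 choroid plexus genes summed to 18570 normalized reads in SD-AcPbKO 04, of which Ttr gave 16190. The other 11 libraries had 266 to 598, controls included. In the same library F13a1 was at 265.3, Cd163 at 222.8 and Lyve1 at 61.01, within the range of the other SD libraries.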

How the results depend on the processing

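The counts of border macrophage genes past the threshold were 3 in wild-type mice, 1 in AcPb-/- mice and 3 over both genotypes after SD. In wild-type mice the count was 0 at an adjusted p under 0.01 and 0 with no variance trend. With all 4 groups in 1 fit only Siglec1 passed, so F13a1 and Cd163 did not. The count was 2 after thinning (1 higher and 1 lower) and 0 to 2 with a replicate left out. Over all genes, 5186 of 20417 passed in the main fit, 2360 at an adjusted p under 0.01 and 2536 with no variance trend. All 4 groups in 1 fit gave 5108 of 20978, thinning 4415 of 19953, and leaving out a replicate gave 2699 to 6222. Removing the Xist libraries leaves 1 control library in each genotype, so no count within a genotype is given for it. In AcPb-/- mice the count was 0 at an adjusted p under 0.01, 2 with a pseudocount of 10 and 0 after thinning. It was 3 with the Xist term and 0 to 1 with a replicate left out. Over all genes, 5633 of 20574 passed in the main fit, 2656 at an adjusted p under 0.01 and 5512 with a pseudocount of 10. Thinning gave 5074 of 20109, the Xist term 5189 of 20978, and leaving out a replicate 3393 to 5412. Over both genotypes the count of border macrophage genes was 1 at an adjusted p under 0.01. It was 4 with a mean of at least 10, with edgeR and with DESeq2 (3 higher and 1 lower each). It was 2 with a pseudocount of 0.1, with no variance trend and after thinning, and 1 to 2 with a replicate left out. Over all genes, 8707 of 20978 passed in the main fit, 6219 at an adjusted p under 0.01 and 8181 with no variance trend. A mean of at least 10 gave 8716 of 16062. Of 20978 genes, edgeR called 8575, DESeq2 8569 and the fit with a pseudocount of 0.1 8633. Thinning gave 8046 of 20585, and leaving out a replicate gave 7712 to 8786. With no variance trend the 1 gene past the threshold in AcPb-/- mice was Ms4a7 rather than F13a1. All genotype and interaction counts stayed at 0. The cause of these changes was not tested. Replicate numbers are shared by few libraries and were not taken to pair them (r of same-numbered deviations 0.102 and -0.0749 in wild-type, -0.141 and -0.0182 in AcPb-/- mice). Between genotypes after SD r was 0.216 and 0.231, the highest of 9 pairs. The replicate block gave 2 members in wild-type, 0 in AcPb-/- mice and 0 for genotype after SD, where calls over all genes went from 3 to 194. Its calls over all genes after SD were 7466 of 20102 in wild-type and 2201 of 20289 in AcPb-/- mice.

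Of 1210 alternative values of single members, 61 lost the threshold and 13 gained it. The sign changed in 82, none past the threshold in the alternative, and in 70 of these by under 1 standard error of the reported value. The other 12 are as follows. With the Xist term those were Mrc1 in wild-type mice (0.18) and Ms4a7 over both genotypes (0.13). Without the Xist libraries they were Folr2 after SD in AcPb-/- mice (-0.34), Mrc1 (-0.28), Cd163 (-0.27) and Stab1 (-0.016) for genotype in undisturbed mice, Ms4a7 over both genotypes (0.13) and the Cd163 interaction (0.57). After thinning it was Cbr2 in AcPb-/- mice (-0.21). With a replicate left out, among changes of over 1 standard error, Pf4 in wild-type mice ranged from -0.52 to 0.043, F13a1 for genotype in undisturbed mice from -0.17 to 0.19 and Stab1 over both genotypes from -0.10 to 0.036. Depth limits Siglec1 and Ms4a7 most, at 8 to 53 reads per library.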

Other observations

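Neutrophil genes spread widely among libraries. Summed over 6 genes, neutrophil genes were at 23.9 to 32.4 normalized reads in CTL-WT, 28.2 to 111 in SD-WT, 26.9 to 75.7 in CTL-AcPbKO and 22.5 to 766 in SD-AcPbKO. In SD-WT against CTL-WT S100a8 (limma, adjusted p = 0.0163) and Ltf (limma, adjusted p = 0.0389) rose, and in AcPb-/- mice and over both genotypes 0 did. Of 8 lymphocyte genes, 6 had under 10 reads in every library, and 1, Cd79a, rose over both genotypes (0.54 ± 0.20, limma, adjusted p = 0.0461), but not with the Xist term (0.57, limma, adjusted p = 0.164). In the vessel wall 5 of 10 endothelial genes rose and 1 fell over both genotypes, led by the lipid transporter Mfsd2a (1.22 ± 0.13, limma, adjusted p = 1.45e-05), while 3 of 9 pericyte and smooth muscle genes rose and 2 fell. Of 6 astrocyte genes 3 fell, and of 6 cortical neuron genes 2 rose and 3 fell. With the Xist term 5 endothelial genes rose and 1 fell, and 2 pericyte and smooth muscle genes rose and 0 fell. With that term 1 astrocyte gene fell, and 2 neuron genes rose and 2 fell. Over all 20978 genes 41.5% passed over both genotypes, and 6451 genes passed with the Xist term.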
